A study of Mus musculus with 11 samples.

Results

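The mouse stefin A genes lie side by side on chromosome 16, and 6 of them, Stfa1, Stfa2, Stfa2l1, Stfa3, Gm5483 and BC100530, were followed here through 11 hearts. They are 6 of the 55513 genes of the count table. The genes were selected on the outcome of the A10i and DMSO comparison, since Gm5483 is among the genes with the largest drop under A10i, so their values in that comparison are a description and carry no test. All mice were female C57BL/6J, 8 weeks old, and were studied 3 days after surgery. In 8 of them the left anterior descending coronary artery was permanently ligated to cause a myocardial infarction (MI). Of these, 4 were given GI254023X (A10i, 100 mg/kg in DMSO), which inhibits the sheddase ADAM10, from implanted osmotic minipumps and 4 were given DMSO alone. The remaining 3 were sham mice given DMSO. The tissue was the infarct with its border zone in the mice with MI, per the paper, and healthy heart in the sham mice. Ligation and sampled tissue thus cannot be told apart in any comparison with sham mice. RNA of whole tissue was sequenced, 1 library per mouse, with totals of 21702659 to 29511782 counts. The cardiac identity of the tissue was plain in every library, as 9 cardiomyocyte genes summed to between 38560 and 77430 CPM (counts per 1000000 counts of the library, whose size was scaled with edgeR's TMM factors, throughout).

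Stefins are small cystatins that stay inside the cell and block cysteine proteases, chiefly the lysosomal cathepsins. Cystatin A, the human stefin A, is known from skin and from neutrophils, and the mouse carries several copies of the gene in tandem where the human genome has a lone gene. In mice these transcripts are abundant in neutrophils, the white blood cells that enter an infarct first.

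The cluster spans 298.582 kb of the GRCm38 (mm10) assembly. In order along the chromosome, Stfa2l1 lies at chr16:36156811-36161953, Gm5483 at chr16:36184212-36188111 and Stfa1 at chr16:36276951-36285373, all on the plus strand. BC100530 lies at chr16:36359382-36367748, Stfa2 at chr16:36403992-36408457 and Stfa3 at chr16:36450537-36455392, all on the minus strand. RefSeq names Gm5483 Cstdc4 and BC100530 Cstdc5. The annotated protein-coding transcripts have 3 exons each. The coding sequence has 312 bases in Stfa2l1, Stfa2 and Stfa3 and 294 in Gm5483, BC100530 and the transcript of Stfa1 used here, while a further transcript of Stfa1 has 387.

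The copies come in near-identical pairs, which matters because the authors counted only reads that aligned to a single place. Stfa2l1 and Stfa2 shared 96.5% of the aligned coding bases and Stfa1 and BC100530 shared 97.96%, whereas the other pairs of the 6 genes shared 73.4 to 81.7%. The first 300 coding bases of Stfa2l1 and Stfa2 (GENCODE M21) are shown. A read that lies within them can be assigned to either gene only by the 11 differing bases, set in capitals, or by its mate.
Stfa2l1: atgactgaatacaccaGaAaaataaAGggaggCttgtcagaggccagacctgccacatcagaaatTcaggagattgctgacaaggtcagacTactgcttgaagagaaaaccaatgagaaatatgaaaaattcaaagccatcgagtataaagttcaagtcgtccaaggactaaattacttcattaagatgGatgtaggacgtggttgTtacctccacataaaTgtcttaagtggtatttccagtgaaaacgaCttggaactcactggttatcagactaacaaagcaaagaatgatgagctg
Stfa2: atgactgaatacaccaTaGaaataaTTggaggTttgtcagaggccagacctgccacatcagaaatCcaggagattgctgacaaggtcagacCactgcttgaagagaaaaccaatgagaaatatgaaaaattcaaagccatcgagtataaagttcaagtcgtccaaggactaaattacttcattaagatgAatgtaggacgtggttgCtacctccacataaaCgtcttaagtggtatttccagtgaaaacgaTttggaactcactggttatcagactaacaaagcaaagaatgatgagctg

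The whole coding sequences of Stfa1 and BC100530, 294 bases each, differ at 6 bases and are shown in the same way.
Stfa1: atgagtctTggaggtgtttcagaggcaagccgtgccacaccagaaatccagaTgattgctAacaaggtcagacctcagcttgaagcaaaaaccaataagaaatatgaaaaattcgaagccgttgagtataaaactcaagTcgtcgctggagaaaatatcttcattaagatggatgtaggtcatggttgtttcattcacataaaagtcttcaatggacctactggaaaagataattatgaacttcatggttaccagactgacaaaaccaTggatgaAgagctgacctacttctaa
BC100530: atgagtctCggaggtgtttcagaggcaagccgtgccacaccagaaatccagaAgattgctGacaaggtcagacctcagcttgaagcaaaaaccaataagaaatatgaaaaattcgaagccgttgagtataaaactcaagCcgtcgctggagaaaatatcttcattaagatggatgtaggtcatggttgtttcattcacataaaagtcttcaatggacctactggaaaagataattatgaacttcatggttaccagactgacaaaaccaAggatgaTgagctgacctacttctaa

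A read of 100 bases has no unique place where a stretch of that length is also found in another gene, unless its mate has. Of all 100-base windows of the protein-coding transcript, 13.1% of those of BC100530 and 11.1% of those of Gm5483 were present, letter for letter, in the transcript of another gene. The share was 5.60% and 1.93% for the 2 transcripts of Stfa1, and 0 for Stfa2, Stfa2l1 and Stfa3. For Gm5483 the other gene was 2010005H15Rik (Csta2 in RefSeq), a stefin A copy between Gm5483 and Stfa1 whose coding sequence is 96.9% the same. How many reads were lost in this way was not tested. BC100530 also overlaps Gm15845 on the opposite strand, and the strand setting of the counting is not given in the sources used here, but Gm15845 had 0 counts in every library.

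The copies also resemble each other upstream of their start sites. The 110 bases before the RefSeq start (GRCm38.p6) are shown for the 3 genes whose RefSeq and GENCODE starts agree, and the capitals mark 3 runs of letters that all 6 genes share: CACACTCATT (with the T that follows it in some genes), AGAGGAGGAG and ACCTTTAAAACC.
Stfa2l1, chr16:36156701-36156810, plus strand: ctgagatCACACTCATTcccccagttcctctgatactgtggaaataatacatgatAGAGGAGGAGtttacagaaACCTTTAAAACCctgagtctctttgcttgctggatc
Gm5483, chr16:36184102-36184211, plus strand: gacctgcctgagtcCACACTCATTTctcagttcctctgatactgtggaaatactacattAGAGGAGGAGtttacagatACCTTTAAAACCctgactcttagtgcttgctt
Stfa3, chr16:36455393-36455502, minus strand: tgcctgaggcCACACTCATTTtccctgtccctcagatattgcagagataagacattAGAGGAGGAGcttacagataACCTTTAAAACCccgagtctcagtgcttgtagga

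On either strand of the 250 bases before the start, the first run was present in 0.0822%, the second in 0.816% and the third in 0.0335% of 32851 RefSeq promoters. These are 27, 268 and 11 promoters, the 6 genes included. The runs were picked because all 6 genes share them, so their presence in all 6 is no test. Over these 250 bases any 2 of the 6 genes shared 65.2 to 89.4% of the aligned bases. The word TATAAA was found in none of the 6 windows (12.4% of all promoters), whereas TTTAAA, part of the third run, was found in all 6 (12.1%). GAGGAA, the core of the motif of PU.1, a factor of myeloid cells, was found in all 6 windows and in 23.3% of all promoters. TTGCNNAA, the C/EBP motif, was found in Stfa1 and BC100530 only (9.56% of all promoters). These are matches of letters, and binding was not measured.

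Healthy heart held almost no stefin A RNA. Summed over the 3 sham mice, Stfa2l1, Stfa1, BC100530 and Stfa2 had 0 counts and Gm5483 and Stfa3 had 1 count each. A count of 0 in the group allows up to 3 counts, and this limit, like the intervals given below, covers counting error only.

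Of the 6 genes Gm5483 had the most counts in each DMSO mouse, whereas Stfa2l1 had more in A10i mice A117 and A120. In the DMSO mice A105, A127, A128 and A129 Gm5483 had 75, 64, 190 and 90 counts, and in the A10i mice A116, A117, A119 and A120 it had 15, 7, 7 and 6. All 4 DMSO mice lay above all 4 A10i mice, and every infarcted heart lay above the sham hearts. The mean level was 3.79 ± 1.79 CPM (SD, n = 4) in DMSO and 0.356 ± 0.159 CPM (SD, n = 4) in A10i mice.

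Stfa2l1 behaved alike, with 39, 49, 92 and 57 counts in the same DMSO mice and 13, 9, 1 and 11 counts in the A10i mice. Again the groups did not overlap, and the lowest DMSO mouse, at 1.64 CPM, lay above the highest A10i mouse, at 0.515 CPM. The means were 2.15 ± 0.670 CPM (SD, n = 4) and 0.350 ± 0.219 CPM (SD, n = 4).

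The other 4 genes were uneven between the DMSO mice. Stfa1 had 4, 21, 63 and 6 counts in A105, A127, A128 and A129, and 5, 6, 1 and 0 in A116, A117, A119 and A120. BC100530 had 2, 22, 92 and 9 counts in the DMSO mice and 0, 4, 0 and 2 in the A10i mice. Stfa2, the close relative of Stfa2l1, had 1, 19, 65 and 7 counts in the DMSO mice and 3, 3, 1 and 1 in the A10i mice. For all 3 genes A128 was highest, A127 came next and A105 was lowest among the DMSO mice, and A105 lay within the range of the A10i mice.

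Stfa3 was the least abundant, with 2, 3, 27 and 2 counts in the DMSO mice and 3, 1, 0 and 0 in the A10i mice. Here all DMSO mice but A128 overlapped with the A10i mice. Mean DMSO levels were 0.801 ± 0.895 CPM for Stfa1, 1.06 ± 1.36 CPM for BC100530, 0.779 ± 0.954 CPM for Stfa2 and 0.290 ± 0.405 CPM for Stfa3 (SD, n = 4). In A10i mice they were 0.118 ± 0.114, 0.0612 ± 0.0754, 0.0803 ± 0.0430 and 0.0394 ± 0.0561 CPM in the same order (SD, n = 4). For each of these 4 genes the SD of the DMSO mice exceeded their mean.

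**Figure D1:**
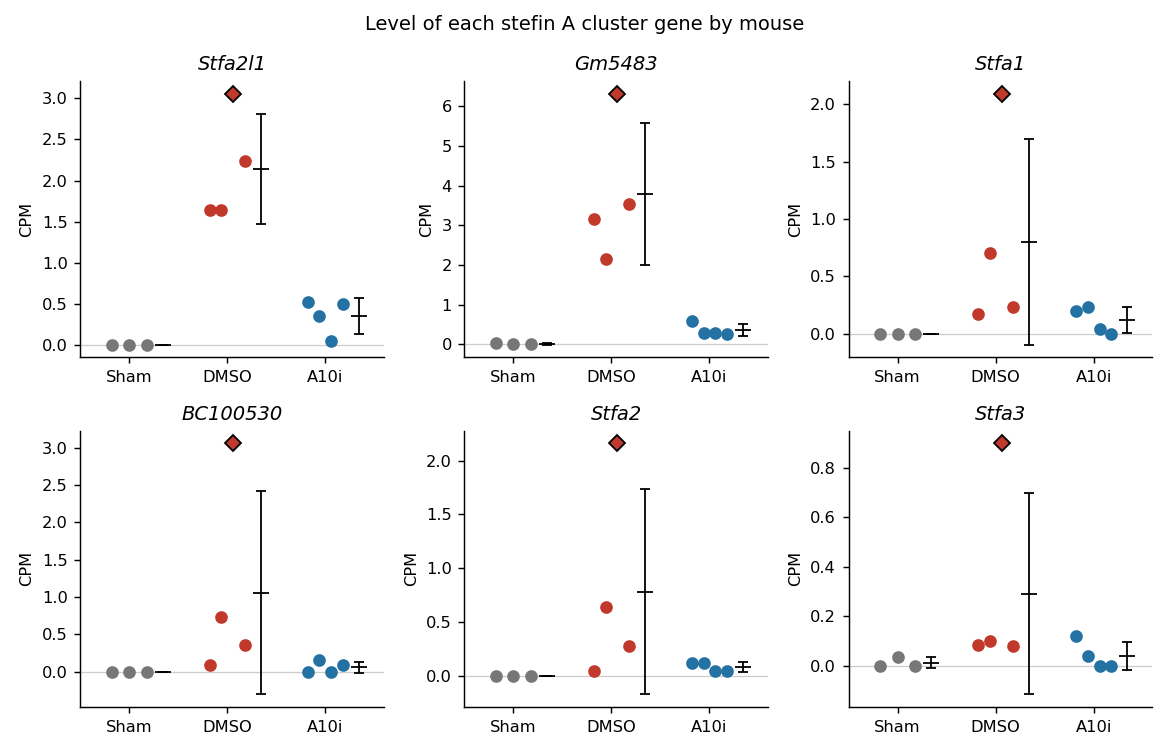
Level of each of the 6 genes in CPM (vertical axis, a scale of its own in each panel) by group, with 1 point per mouse and the mean ± SD beside the points. The diamond is DMSO mouse A128, the highest mouse for every gene, and Stfa2l1 and Gm5483 are the genes whose DMSO and A10i points do not overlap.

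Per kilobase of transcript, the order of the genes depended on the length used for Gm5483. The table gives Gm5483 a length of 1862 bases, since it includes a transcript that keeps an intron, while the spliced transcript has 414. Mean DMSO levels were 9.15 ± 4.31 CPM per kb for Gm5483 on the spliced length, against 2.04 ± 0.959 on the table's length, and 5.12 ± 1.60 for Stfa2l1 on both (SD, n = 4). Gm5483 was thus above Stfa2l1 in 4 of 4 DMSO mice on the spliced length and below it in 4 of 4 on the table's length. On spliced lengths BC100530 followed at 1.71 ± 2.20, Stfa2 at 1.65 ± 2.03, Stfa1 at 1.30 ± 1.45 and Stfa3 at 0.705 ± 0.983 CPM per kb. In this order BC100530 was above Stfa2 in 2 of 4 DMSO mice and Stfa1 was above Stfa2 in 1 of 4, whereas Stfa1 was above Stfa3 in 4 of 4. The SD over mice exceeded the mean for each of these 4 genes. In the A10i mice Gm5483 and Stfa2l1 had 0.860 ± 0.385 and 0.835 ± 0.522 CPM per kb on spliced lengths, and both were above each of the other 4 genes in 4 of 4 mice.

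The first question was whether the cluster is raised in the infarct and border zone. The DMSO and sham mice were compared with edgeR's quasi-likelihood test over 17119 genes, of which 12.9% were higher in DMSO mice at an adjusted p below 0.01. The DMSO libraries also took part in the comparison that selected the genes, so this test is not independent of the selection, and the genes passed the filter on low counts only through the DMSO libraries. Only 3 of the 6 passed it. Gm5483 was higher by 7.71 on the log2 scale (SE 0.757, edgeR adjusted p = 0.000177) and Stfa2l1 by 8.82 (SE 0.763, adjusted p = 0.000226). BC100530 was higher by 7.84 (SE 2.38) and missed the threshold (adjusted p = 0.0372). Fewer cells of a type and less RNA per cell cannot be told apart in RNA of whole tissue, here and in each result that follows.

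Fitted fold changes of genes at 0 depend on the prior count, so bounds from the counts are given beside them. Against 3 counts over the sham group, Stfa2l1 was at least 54.1-fold, BC100530 at least 28.5-fold, Stfa1 at least 21.4-fold and Stfa2 at least 20.98-fold higher in DMSO mice. The ratio was 286.7 for Gm5483 (exact 95% interval 51.2 to 11350) and 23.3 for Stfa3 (3.90 to 945), each against 1 count. Without A128 the bounds for BC100530, Stfa1 and Stfa2 were 10.4, 9.76 and 8.50, and the ratio for Stfa3 was 6.61 with an interval of 0.849 to 298 that includes 1. For Stfa2l1 and Gm5483 they were 45.7 and 216.3 without that mouse.

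Calls for the 4 uneven genes depended on the tool. Without the filter, edgeR gave adjusted p-values of 0.183 for Stfa1, 0.258 for BC100530, 0.257 for Stfa2 and 0.0544 for Stfa3. DESeq2 gave 3.99e-05, 0.00127, 0.000119 and 0.02502 in the same order. Both tools placed Stfa2l1 and Gm5483 below 0.01.

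Under A10i the cluster remained above the sham level for the same pair of genes. In the comparison of A10i with sham mice no member passed the filter, so edgeR's main test gave no value for any of the 6. Without the filter, Stfa2l1 (adjusted p = 0.000314) and Gm5483 (adjusted p = 0.000344) were higher in A10i mice, and DESeq2 gave 0.00105 and 0.00326. Stfa2l1 was at least 8.67-fold higher, and the ratio for Gm5483 was 26.8 (4.50 to 1088). Stfa1 was at least 3.06-fold, Stfa2 at least 2.04-fold and BC100530 at least 1.53-fold higher, but BC100530 had 2 counts in all without A117, which gives no bound. The ratio of 3.06 for Stfa3 had an interval of 0.303 to 150.7 and was 1.03 without A116.

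The comparison that chose the genes was A10i against DMSO after MI. Over all 16793 genes tested, edgeR called 0.0% lower at an adjusted p below 0.01 (0 genes, against 125 with DESeq2), 6.73% lower and 7.1% higher at an unadjusted p below 0.05, and 4.12% had all A10i mice below all DMSO mice. The fitted log2 difference, A10i minus DMSO, was -3.39 (SE 0.409) for Gm5483 and -2.61 (SE 0.452) for Stfa2l1. The other genes did not pass the filter and were fitted without it, at -4.05 (SE 1.45) for BC100530, -3.22 (SE 1.17) for Stfa2, -2.75 (SE 1.13) for Stfa3 and -2.71 (SE 1.08) for Stfa1. The ratio of the mean CPM, DMSO over A10i, ran from 6.13 for Stfa2l1 to 17.3 for BC100530, with 10.6 for Gm5483.

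Mouse A128 carried much of the size for the 4 uneven genes. That mouse held 27.6% of the effective library size of the DMSO group but 79.4% of the DMSO counts of Stfa3 (exact 95% interval 62.1 to 91.3), 73.6% of those of BC100530 (65.0 to 81.1), 70.7% of those of Stfa2 (60.2 to 79.7) and 67.0% of those of Stfa1 (56.6 to 76.4). Its share was 45.4% for Gm5483 (40.5 to 50.3) and 38.8% for Stfa2l1 (32.6 to 45.3). Without A128 the log2 difference was -1.03 (SE 1.08) for Stfa3, -1.60 (SE 0.720) for Stfa1, -1.95 (SE 0.732) for Stfa2 and -2.62 (SE 0.857) for BC100530. It was -3.02 (SE 0.323) for Gm5483 and -2.38 (SE 0.412) for Stfa2l1, both still without overlap between the groups. All 6 genes had a negative difference in each of the 8 fits that left out 1 mouse. Without A10i mouse A117 the difference of BC100530 was -5.07, and without A10i mouse A116 that of Stfa3 was -4.04. Without DMSO mouse A105 the groups no longer overlapped for Stfa1, BC100530 and Stfa2.

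**Figure D2:**
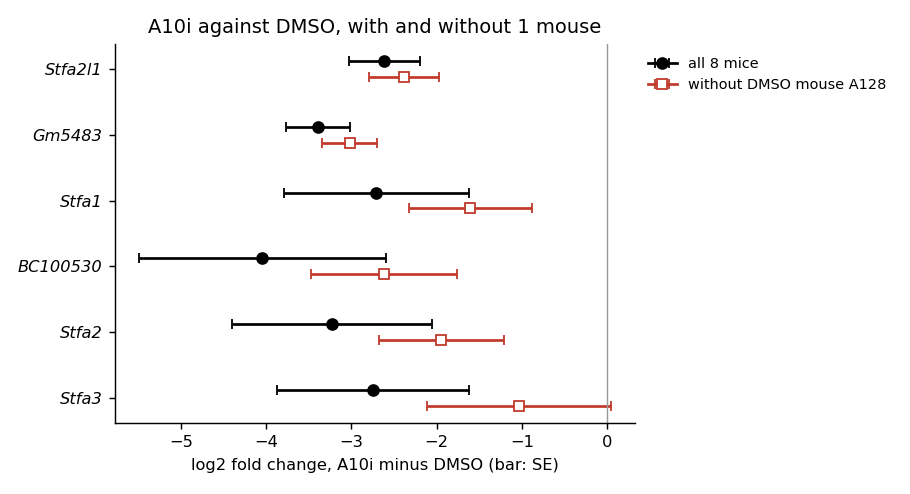
Fitted log2 fold change, A10i minus DMSO (horizontal axis, bars are SE), for the 6 genes with all 8 mice (filled circles) and without DMSO mouse A128 (open squares), from the fit without a filter on low counts. Leaving out A128 moves Gm5483 from -3.39 to -3.02 and Stfa3 from -2.75 to -1.03.

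The mix of cluster transcripts differed from mouse to mouse. The split into Gm5483 and Stfa2l1 on the steady side and Stfa1, BC100530, Stfa2 and Stfa3 on the uneven side was made after their values were seen. The 4 uneven genes made up 7.32% of the counts of all 6 genes in A105 (exact 95% interval 3.40 to 13.4), 14.0% in A129 (9.204 to 20.2), 36.5% in A127 (29.4 to 44.1) and 46.7% in A128 (42.4 to 51.1). The intervals of A105 and A129 lie below those of A127 and A128, which describes these mice only, since the genes were grouped by this unevenness. In A10i mice the share was 28.2% of 39 counts in A116 and 46.7% of 30 in A117, with 2 of 10 counts in A119 and 3 of 20 in A120, and the intervals were wide. Pooled over mice it was 34.5% in DMSO (31.5 to 37.5) and 30.3% in A10i mice (21.5 to 40.4), and 20.8% in DMSO mice without A128 (17.2 to 24.7).

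**Figure D3:**
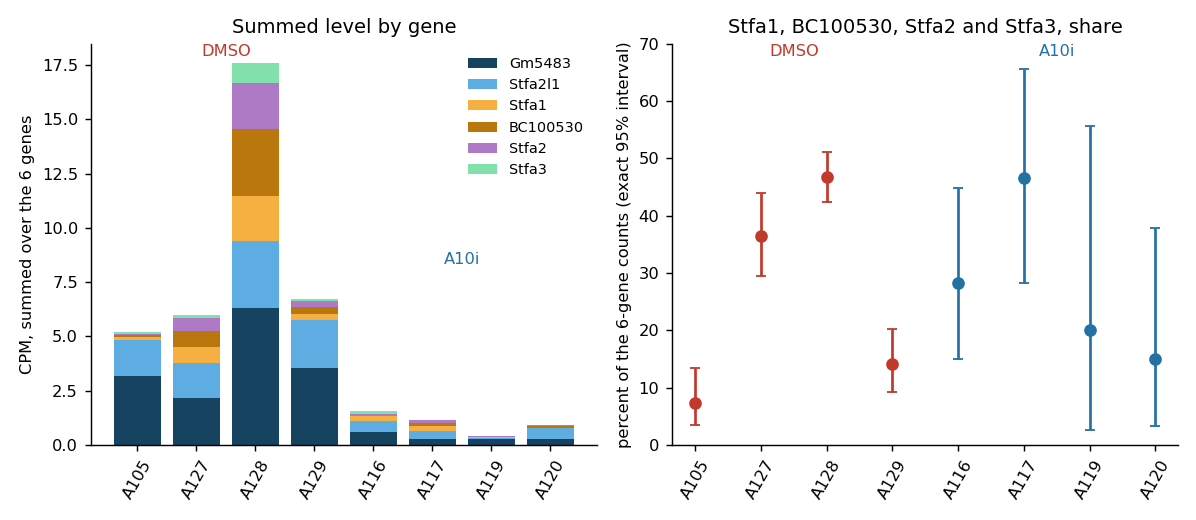
Left, CPM of the 6 genes stacked for each infarcted mouse. Right, the share of the 6-gene counts that came from Stfa1, BC100530, Stfa2 and Stfa3, in percent with its exact 95% interval. The share spans 7.32% to 46.7% among the DMSO mice, and the summed level is highest in A128.

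Neutrophil transcripts as a list were not highest in A128, although some of them were. The sum of 20 neutrophil surface and mature-cell genes was 187.5 CPM in A128, against 205.5 in A105, 124.5 in A127 and 260.4 in A129. Retnlg, a member of that list, had 283 counts in A128 and 86 to 130 in the other DMSO mice, and S100a8 and S100a9 together had 2040 in A128 and 1392, 1174 and 1674 in A105, A127 and A129. These counts are not scaled, and the effective library size was 30075783 in A128 and 25483048 in A129. Scaled for it, the lead of A128 over A129 in S100a8 and S100a9 is smaller. The summed macrophage list was 396.8 CPM in A128, the lowest of the 4 DMSO mice, which ranged up to 584.4. Stefin A is also a skin protein, so epidermal genes were examined. Their summed level of 53.9 CPM in A128 lay within the DMSO range of 18.4 to 72.2, and most of it was Sprr1a (48.3 ± 22.6 CPM in DMSO, SD, n = 4). Of the 12 epidermal genes, Sprr1b had 0 counts in every library, Krt5 and Krt15 had at most 1, Krt1 at most 3 and Ivl at most 6. The keratin genes Krt14 and Krt10 and the transcription factor gene Trp63 were present, at 15 to 62, 22 to 38 and 6 to 13 counts in DMSO mice. Krt14 had 34 to 88 counts in A10i mice and was higher in DMSO than in sham mice by 4.38 (SE 0.794, edgeR adjusted p = 0.00263). With 0 to 3 counts in sham mice, it passed the filter only through the DMSO libraries, which favours this direction. The part of epidermal transcripts in the stefin A values was not tested.

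Other genes lie between the members. Of 23 such genes, 18 had 0 counts in every library. 2010005H15Rik, the stefin A copy most like Gm5483, had 13, 16, 21 and 22 counts in the DMSO mice A105, A127, A128 and A129 and 4, 4, 0 and 1 in the A10i mice, without overlap, and 1 count over the sham mice. Unlike Stfa1, BC100530, Stfa2 and Stfa3, it was even across the DMSO mice at 0.661 ± 0.154 CPM (SD, n = 4). Gm5416 (Csta3 in RefSeq) had 1 to 4 counts in each DMSO mouse and 0 elsewhere. BC117090 (Cstdc6 in RefSeq) had 3 counts in A127, 6 in A128, 1 in A116 and 0 in the other libraries. Gm6815 had 1 count, in A127. Gm10913 was measured at a like level in every group, 0.610 ± 0.219 CPM in sham (SD, n = 3), 0.780 ± 0.337 in DMSO and 0.710 ± 0.391 in A10i mice (SD, n = 4).

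**Figure D4:**
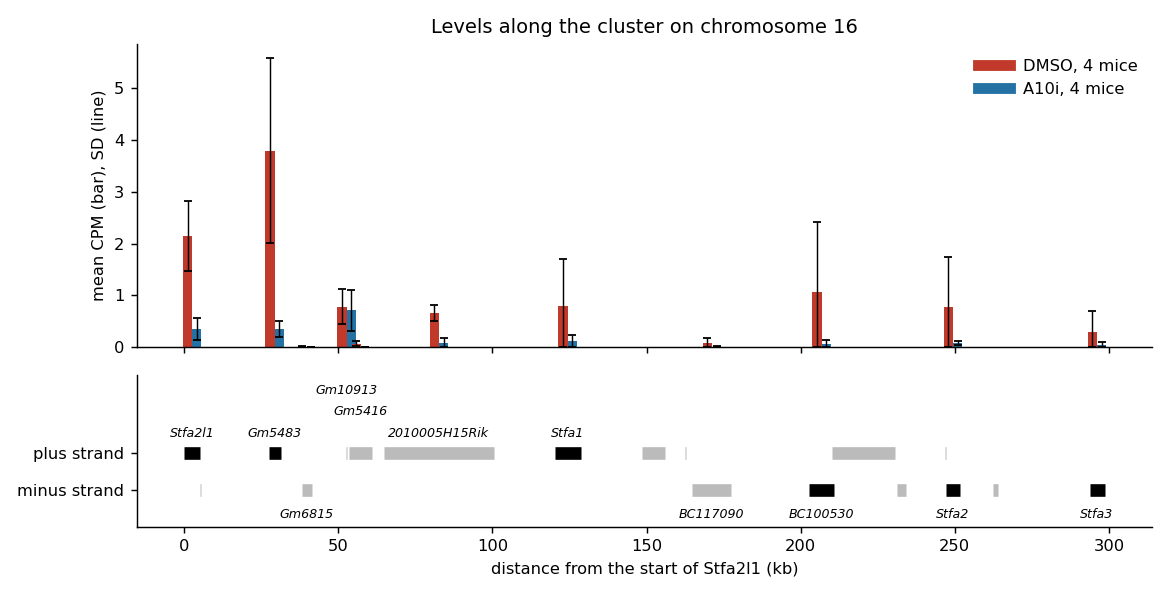
Mean CPM (bars) and SD (lines, drawn down to 0 at most) in DMSO and A10i mice for the genes of the cluster with a count in an infarcted heart, at their distance in kb from the start of Stfa2l1, above a map of all annotated genes by strand (black, the 6 members). Gm10913 has a like level in both groups, 0.780 and 0.710 CPM.

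Neutrophil genes differed in the same direction as the cluster, in a comparison that shares all its libraries. Of the 20 neutrophil surface and mature-cell genes, 17 were tested between A10i and DMSO mice. Of these, 14 were lower at an unadjusted p below 0.05, against 6.73% of all 16793 genes tested. For 9 all A10i mice lay below all DMSO mice, against 4.12% of all genes, and 0 passed an adjusted p of 0.01. The median log2 difference of the 17 was -1.69, against 0.00 over all genes. The members with the smallest p were S100a9 (-1.96, SE 0.317, edgeR adjusted p = 0.0707) and S100a8 (-2.001, SE 0.326, adjusted p = 0.0707), the subunits of calprotectin, Asprv1 (-2.26, SE 0.390, adjusted p = 0.0707), an aspartic protease, and Cxcr2 (-2.48, SE 0.464, adjusted p = 0.0821), the receptor for neutrophil-attracting chemokines. DESeq2 placed 8 genes of this list below 0.01. Of 12 granule genes 6 were tested and 5 were lower at an unadjusted p below 0.05, among them Wfdc21 (-1.77), the gelatinase Mmp9 (-1.84), Chil3 (-2.03) and the collagenase Mmp8 (-1.03). In DMSO against sham mice, all 18 tested surface genes and all 5 tested granule genes were higher at an adjusted p below 0.01, against 12.9% of 17119 genes. Many of these genes were near 0 in sham mice and passed the filter only through the DMSO libraries. Among them were Trem1 and Wfdc21, with 0 counts in every sham mouse, and Chil3 and Cd177, with at most 1. Cxcr2, Il1r2, Fpr1 and Retnlg had at most 2, S100a8, Asprv1 and Mmp8 at most 3 and S100a9 at most 7. The filter thus favoured genes that are higher in DMSO mice. That all 18 and all 5 were higher was in large part set by it and is no independent test. These counts also do not speak for the untested genes of the lists.

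Genes of other white blood cells differed in direction. Over all 16793 genes tested, 7.1% were higher and 6.73% lower in A10i mice at an unadjusted p below 0.05, so 1 call in a short list says little. Of 9 macrophage genes, 5 were higher at this level and 0 were lower, with C1qc at 0.53 (SE 0.142, edgeR adjusted p = 0.156) and C1qa at 0.51 (SE 0.140, adjusted p = 0.161). The count was 2 without DMSO mouse A105 or A128 or with library size alone, and 3 without A10i mouse A116 or A120. Of 6 monocyte genes 1 was lower, Chil3, which is also on the granule list. Of 5 tested mast cell and basophil genes 3 were higher, among them the chymase Cma1 at 1.05 (SE 0.266, adjusted p = 0.140), which alone was higher without A10i mouse A120. No eosinophil gene and 4 of 12 epidermal genes passed the filter, and of the 4 none had an unadjusted p below 0.05 by edgeR, but Krt14 was higher when A116, A119 or A127 was left out. Of 9 cardiomyocyte genes 1 was lower, Myh7 at -0.72 (SE 0.256, adjusted p = 0.254), and 0 were lower without A10i mouse A119 or A120. Most of this list went the other way, as 7 of the 9 had a positive difference and the median was 0.19. Myh6 was at 0.39 (SE 0.189) and Ryr2 at 0.30 (SE 0.138). Both were higher at an unadjusted p below 0.05 with DESeq2, with library size alone and in the joint fit of all 11 libraries.

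The summed counts of the cluster were lower under A10i also relative to the neutrophil genes. Per 1000 counts of the neutrophil surface list, the 6 genes together had 25.2 counts in A105, 47.9 in A127, 93.8 in A128 and 25.8 in A129. In A116, A117, A119 and A120 they had 12.7, 12.0, 8.39 and 11.5. The lowest DMSO mouse was thus 25.2 and the highest A10i mouse 12.7, and the mean log2 ratio differed by -1.91, A10i minus DMSO. For Stfa1, BC100530, Stfa2 and Stfa3 together the groups overlapped, at 1.85 to 43.8 in DMSO and 1.68 to 5.58 in A10i mice, so the separation of the sum came with Gm5483 and Stfa2l1. Because the members were selected on this contrast, this difference has no test.

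How much lower depended on the markers used for the ratio. Hp, a member of the list that other cell types also make, made up 25.3 to 42.8% of the list's counts in A10i mice and 9.202 to 12.3% in DMSO mice. Without Hp the log2 ratio differed by -1.45, and against the granule list by -1.47. Against S100a8 and S100a9 alone it differed by -1.03, and the groups still did not overlap. For Gm5483 alone, counts per 1000 of S100a8 and S100a9 were 53.8 to 93.1 in DMSO and 17.1 to 43.2 in A10i mice. For Stfa2l1 the same ratio overlapped, with 28.0 to 45.1 in DMSO and 6.17 to 31.4 in A10i mice. Stfa2l1 also overlapped per 1000 counts of the list without Hp, with as few as 8.97 in a DMSO mouse and as many as 10.1 in an A10i mouse. The difference between Gm5483 and Stfa2l1 was not tested.

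**Figure D5:**
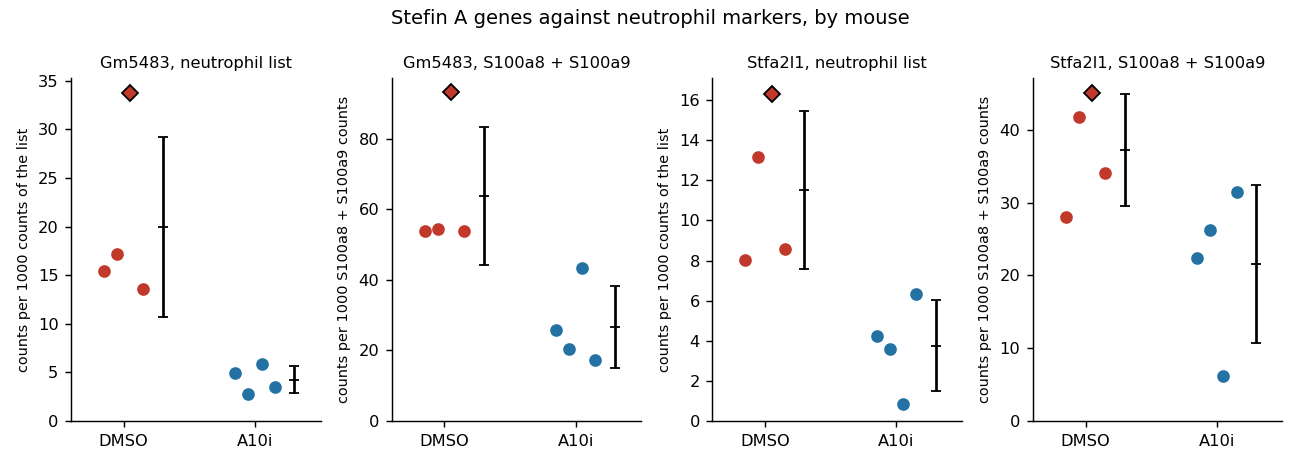
Counts of Gm5483 and Stfa2l1 per 1000 counts of the neutrophil surface list or of S100a8 and S100a9 (vertical axes), 1 point per mouse, with mean ± SD beside the points and A128 as a diamond. Of the 4 ratios plotted, the groups overlap for Stfa2l1 against S100a8 and S100a9, where A10i mice reach 31.4 and DMSO mice start at 28.0.

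The genes whose pattern was most like Gm5483 over the 8 infarcted hearts were sought by the root mean square (RMS) difference of centred log2 CPM, over 16691 genes. Gm5483 was selected for its drop under A10i in these same hearts, so the measure favours other genes lower in A10i mice. The ranking is a description and no independent evidence of shared regulation. The nearest were Asprv1 (RMS 0.577), Il11 (0.578), S100a8 (0.653), Ptx3 (0.666), 2010005H15Rik (0.676), Cxcl5 (0.681), S100a9 (0.692), Il1b (0.705), Acod1 (0.707) and Gm19951 (0.720), beside 1.63 for a flat profile. Il11 encodes a cytokine of the IL-6 family, Ptx3 a secreted pentraxin, Cxcl5 a neutrophil chemokine, Il1b interleukin-1 beta and Acod1 the enzyme that makes itaconate. Ptx3 shared the peak in A128, with 320, 251, 1542 and 484 counts in the DMSO mice. Stfa2l1 lay nearest to S100a8 (0.417) and S100a9 (0.434) with a prior count of 2, nearest to 2010005H15Rik (0.549) with a prior count of 0.5, and nearest to Mmp9 (0.486) with the sham mice included. BC100530, chosen as a further anchor after the values were seen, had no neighbour as close among the genes searched. Its distance to the other members was not measured. Its nearest were Gsta1 (1.01), Zan (1.03), Serpina3m (1.04) and Ptx3 (1.10), beside 1.71 for a flat profile, and Il6, sixth in that order, had 220 counts in A128 against 46 to 82 in the other DMSO mice.

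Cysteine cathepsins are the targets of the stefins. None passed an adjusted p of 0.01 between A10i and DMSO mice by edgeR, but neither did any of the 16793 genes tested, so this is nothing particular to cathepsins. Of 10 genes 9 were tested, and 8 of these had a positive log2 difference, with a median of 0.25, beside 8509 of 16793 genes with a positive difference and a median of 0.00 over all genes. Ctsh, at 0.46 (SE 0.158, edgeR adjusted p = 0.246), was the only cathepsin with an unadjusted p below 0.05, and 4 had one when DMSO mouse A129 was left out. Ctsc, which activates neutrophil serine proteases, differed by 0.40 (SE 0.219), Ctsb by 0.25 (SE 0.182) and Ctsk by 0.38 (SE 0.292), none past the threshold. Cathepsins were far more abundant than the stefin A genes, with summed levels of 1056 to 1625 CPM in DMSO and 1266 to 1980 CPM in A10i mice. Against sham mice 4 of the 9 were higher in DMSO mice at an edgeR adjusted p below 0.01, against 12.9% of all 17119 genes tested. They were led by Ctss (2.21, SE 0.387, adjusted p = 0.00266) and Ctsz (1.48, SE 0.225, adjusted p = 0.00138). However, 2 passed without the filter and 0 or 1 when any of the 3 sham mice was left out.

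Of a list of 19 other cystatins, 17 were found by symbol. Csta2 and Csta3 were not, because the count table holds them as 2010005H15Rik and Gm5416, described above. 2010005H15Rik had 0.661 ± 0.154 CPM in DMSO and 0.0895 ± 0.0796 CPM in A10i mice (SD, n = 4). Of the 17 genes 5 passed the filter, and 0 had an unadjusted p below 0.05 between A10i and DMSO mice. None passed an adjusted p of 0.01 by edgeR, but neither did any of the 16793 genes tested. Without A10i mouse A117 Fetub was lower and Cst6 higher at that level, and Cst6 was higher also without DMSO mouse A127. Cstb, the stefin B of most cell types, had a log2 difference of -0.14 (SE 0.174, edgeR adjusted p = 0.768) and a level of 24.4 ± 4.87 CPM in DMSO and 22.1 ± 4.98 CPM in A10i mice (SD, n = 4). Cst3, the secreted cystatin C, differed by 0.07 (SE 0.141, adjusted p = 0.874). Both were higher in DMSO than in sham mice, Cstb by 1.56 (SE 0.153, adjusted p = 0.000157) and Cst3 by 0.56 (SE 0.129, adjusted p = 0.00759). In all, 3 of the 5 were higher in DMSO mice at an adjusted p below 0.01, against 12.9% of all 17119 genes tested. The count was 1 when any of the 3 sham mice was left out.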

How the data were processed

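RNA was measured in 11 mouse hearts (4 A10i, 4 DMSO, 3 sham). The authors prepared stranded libraries from poly(A) RNA and read 100 bases from both ends. GSNAP aligned the reads to mm10, and featureCounts (2.0.1) counted those with a unique alignment on Ensembl 98 genes, per the paper's methods and the submitters' processing notes. The deposited values are raw counts, 1 column per mouse, for 55513 genes. Unique alignment drops reads shared by near-identical stefin A copies.

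Symbols and positions came from GENCODE M21 and upstream sequences from RefSeq (GRCm38.p6), with all 6 members matched. Each pair of groups was fitted over all genes with edgeR 4.0.16 in R 4.3.3 (filterByExpr, TMM, robust quasi-likelihood F-test, two-sided, Benjamini-Hochberg, adjusted p below 0.01). Alternatives were DESeq2 1.42.0, other scalings, no filter, a joint fit and the omission of each mouse. CPM use TMM-scaled library sizes. Likeness used log2 CPM with a prior count of 2 and genes with a mean of at least 10 counts, without the 6 members. Scripts were tested on simulated data. Sequences were aligned with Biopython 1.88.

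The members, the lists and the rule for naming genes were chosen with earlier results of these data known. The rule names the 6 members, the genes between them, up to 4 genes of each list with the smallest p in A10i against DMSO, and the 10 genes most like Gm5483. Hp, Krt5, Krt15, Krt1, Ivl, Sprr1b, Elane, Mpo, Ctsg, Camp, Ltf, Prtn3, Lcn2, Ctss, Ctsz, Cst3 and the genes nearest to Stfa2l1 or BC100530 fall outside it and were named after their values were seen. The ratios to S100a8 and S100a9 and without Hp, the spliced length and the anchor on BC100530 were also added after seeing the data. By its label each library is a mouse of its own, and no sample was left out.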

Additional observations from a re-analysis of the deposited data

Results flagged for a closer look

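In each group of 4 mice, the highest and the lowest value of each gene, and of the ratios to the neutrophil list, was set against the spread of the others with Dixon's test, in 16 groups, of which chance flags about 1 in 20. Stfa3 in DMSO mouse A128, at 0.898 CPM, stood apart from the other DMSO mice, with a gap to the nearest of 0.973 of the group's range. Gm5483 in A10i mouse A116, at 0.595 CPM, stood apart from the other A10i mice, with a gap of 0.941 of the range, and was still below the lowest DMSO mouse at 2.14 CPM.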

How the results depend on the processing

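The number of members higher in DMSO than in sham mice at an adjusted p below 0.01 was 2 in edgeR and 5 with DESeq2, 2 under the other scalings, without the filter and in the joint fit, and 3 at a threshold of 0.05. For A10i against sham mice it was 0, because no member passed the filter, and 2 without the filter, with DESeq2 and in the joint fit of all 11 libraries. Leaving out each mouse in turn gave 2 throughout for DMSO and 0 throughout for A10i. There no member passed the filter when an A10i mouse was left out, and Stfa2l1 alone passed it when a sham mouse was left out, with edgeR adjusted p-values of 0.0354 to 0.0380. The log2 difference of Gm5483 between A10i and DMSO mice ran from -3.75 to -3.02 when a mouse was left out and from -3.41 to -3.39 under the other settings. Its level per kilobase moved from 2.04 to 9.15 CPM with the spliced transcript length, because the table's length includes a kept intron. The number of neutrophil surface genes lower under A10i ran from 12 to 16 and the log2 ratio of the cluster to that list from -2.15 to -1.52 when a mouse was left out. No value changed sign. Library size alone in place of TMM would raise the median of all genes by 0.21 in DMSO against sham mice. Of the 10 genes most like Gm5483, 4 were again among the nearest with the sham mice included and 9 with a prior count of 0.5. No paired analysis was possible because the mice of the groups share no replicate numbers. In A10i mice Stfa1, BC100530, Stfa2 and Stfa3 had at most 6 counts per library, which limits the precision of their values there.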

Other observations

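Neutrophil granule genes were present very unevenly in the infarcted hearts. Elane, the neutrophil elastase, had 0 counts in every library, the granule protease Ctsg at most 2, Camp at most 3, Mpo at most 7 and Ltf at most 13. In the DMSO mice the granule list was carried by Lcn2 (661 to 2432 counts), Chil3 (652 to 2505) and Mmp9 (343 to 610). Prtn3, at 8 to 33 counts in DMSO and 6 to 31 in A10i mice and encoding the proteinase 3 of the same granules as Elane, had a log2 difference of 0.13 (SE 0.600, edgeR adjusted p = 0.951).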
